A study of Mus musculus with 2 samples.

Results

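The cells described here were sorted as CD4 T cells from mouse visceral fat and carried transcripts of natural killer (NK) cell receptors and their companions. A barcode was a member when it held at least 1 unique molecular identifier (UMI) of at least 2 of 7 genes, Klrk1, Klre1, Klra1, Klrc2, Fcer1g, Cd160 and Xcl1, and none of Siglech, Foxp3 and Il1rl1. This rule found 99 members among 6853 kept barcodes of the CD27_KO library and 156 among 6338 of the WT library, 255 of 13191 in all. Members were chosen by the counts of those genes. These counts, and the splits and ratios made with them below, are thus a description and no support for a result.

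NK receptors sense stress ligands and class I molecules on other cells. Some of them activate only through a small transmembrane adaptor, and others inhibit. KLRK1 (NKG2D) signals through the adaptor HCST (DAP10) and, in mouse, also TYROBP (DAP12), KLRC2 pairs with KLRD1 (CD94), and FCER1G is the shared Fc receptor gamma chain that can carry signals of NCR1 and of other receptors. T cells can acquire such receptors on top of their antigen receptor, and innate-like lymphocytes carry them from early on.

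The study asked how CD27, a costimulatory receptor of the tumour necrosis factor receptor family, and its ligand CD70 act on CD4 T cells of visceral adipose tissue. 2 groups were available, cells titled CD27_KO and cells titled WT, with 1 library each. In both, TCRb+ CD4+ cells were sorted by flow cytometry from the stromal vascular fraction of pooled fat, and their RNA was read as 3′ droplet single-cell libraries. The group comes from the sample titles and the protocol (CD27-/- or WT), as the genotype entry reads C57BL/6 for both. The labels name 10 pooled mice without saying whether this was per pool, give no age or sex, and mention crosses of a CD11c-Cd70tg transgene and CD27+/- mice that are not analysed here. With 1 library per group no test across animals was possible, and every interval below covers counting error only (95%, exact). Difference in genotype, pool, sort and library cannot be told apart.

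The libraries held 20191704 UMIs in 6893 CD27_KO barcodes and 16628623 UMIs in 6398 WT barcodes. Members were deeper than the T cells they are set against. The median was 2673 UMIs and 1208 genes in CD27_KO members and 2303.5 UMIs and 1025 genes in WT members. Other T cells, those that had none of the 3 exclusion genes, at least 1 UMI of a T cell receptor or Cd3 gene and no more than 1 rule gene, had a median of 1988 UMIs in CD27_KO (n = 4628) and 1819.5 UMIs in WT (n = 4498). They also held fewer than 2 of 17 markers of other cell types. Ribosomal protein genes gave 23.6% of the UMIs of CD27_KO members and 27.9% of those of WT members, and 26.7% and 33.6% in the other T cells of CD27_KO and WT. The libraries shared 12 barcodes, none of them a member. Cd27 had 0 UMIs in CD27_KO members and 54 UMIs in 42 WT members, and 11 UMIs in other T cells of CD27_KO against 1314 UMIs in those of WT.

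Promoters of 3 genes that the description returns to are shown, and Fcer1g and Xcl1 among them are rule genes. Every member with Ncr1 also held Fcer1g, and Xcl1 was the rule gene away from the Cd27 region that most members held. Each run covers 250 bases before to 50 bases after the RefSeq start in GRCm38.p6, the build of the coordinates, in the gene's own direction. Capitals mark the letters of 3 motifs on either strand, TGTGGT (Runx factors), GGTGTG (T-box factors) and AGGAAG (Ets factors). The Runx and T-box letters can overlap each other. The intervals are chr1:171234300-171234599 on the minus strand for Fcer1g, chr7:4337465-4337764 on the plus strand for Ncr1 and chr1:164935473-164935772 on the minus strand for Xcl1.
Fcer1g: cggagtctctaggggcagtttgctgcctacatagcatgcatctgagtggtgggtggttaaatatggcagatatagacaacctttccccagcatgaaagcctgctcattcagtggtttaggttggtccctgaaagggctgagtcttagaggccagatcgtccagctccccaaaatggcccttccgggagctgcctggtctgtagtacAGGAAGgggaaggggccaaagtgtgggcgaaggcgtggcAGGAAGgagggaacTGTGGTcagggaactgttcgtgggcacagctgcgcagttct
Ncr1: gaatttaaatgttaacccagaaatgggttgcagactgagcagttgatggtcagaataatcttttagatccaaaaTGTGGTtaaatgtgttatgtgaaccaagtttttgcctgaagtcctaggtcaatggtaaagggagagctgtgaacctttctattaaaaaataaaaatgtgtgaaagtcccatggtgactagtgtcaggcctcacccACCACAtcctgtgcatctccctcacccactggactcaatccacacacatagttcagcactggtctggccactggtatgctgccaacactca
Xcl1: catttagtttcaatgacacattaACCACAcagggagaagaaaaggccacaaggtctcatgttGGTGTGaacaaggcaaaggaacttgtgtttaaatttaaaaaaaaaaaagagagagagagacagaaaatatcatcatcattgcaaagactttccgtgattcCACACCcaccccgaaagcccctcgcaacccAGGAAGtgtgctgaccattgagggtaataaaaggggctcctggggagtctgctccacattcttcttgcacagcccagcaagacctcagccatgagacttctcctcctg
The Fcer1g window held 1 Runx and 2 Ets matches, the Ncr1 window 2 Runx matches, and the Xcl1 window 1 Runx, 2 T-box and 1 Ets match. Windows of Klrk1 and Spry2 were searched too and are not shown. Klrk1 held 1 Runx match alone, and Spry2 held 0 matches of any of the motifs. Of 32851 promoter windows of this length, 16.8% held the Runx letters, 19.0% the T-box letters and 35.4% the Ets letters. A match describes the letters and is no site of binding.

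Members made up a smaller share of the CD27_KO library. The share of kept barcodes was 1.44% (1.18% to 1.76%) in CD27_KO and 2.46% (2.09% to 2.87%) in WT, a CD27_KO over WT ratio of 0.587 (0.452 to 0.760). Of the 7 rule genes 4 lie near the targeted gene: Klre1, Klrk1, Klrc2 and Klra1 start 4.35, 4.38, 4.41 and 5.13 Mb from the start of Cd27 on chromosome 6, in the cluster of NK receptor genes. Counted on at least 2 of these 4 genes, the shares were 0.496% in CD27_KO and 1.15% in WT, a ratio of 0.431 (0.278 to 0.656). Counted on at least 2 of Fcer1g and Xcl1 on chromosome 1 and Cd160 on chromosome 3, the shares were 0.803% in CD27_KO and 1.09% in WT, a ratio of 0.737 with an interval of 0.508 to 1.07 that includes 1. The 2 counts share no gene, and the part that the chromosome 6 region plays in the share was not tested. When cells were thinned to 1300 UMIs before the rule was applied, the shares were 0.838% in CD27_KO and 1.64% in WT. The threshold cut through a gradient, since 353 CD27_KO and 441 WT cells with no exclusion gene held exactly 1 rule gene and 59 CD27_KO and 81 WT members held exactly 2.

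**Figure D1:**
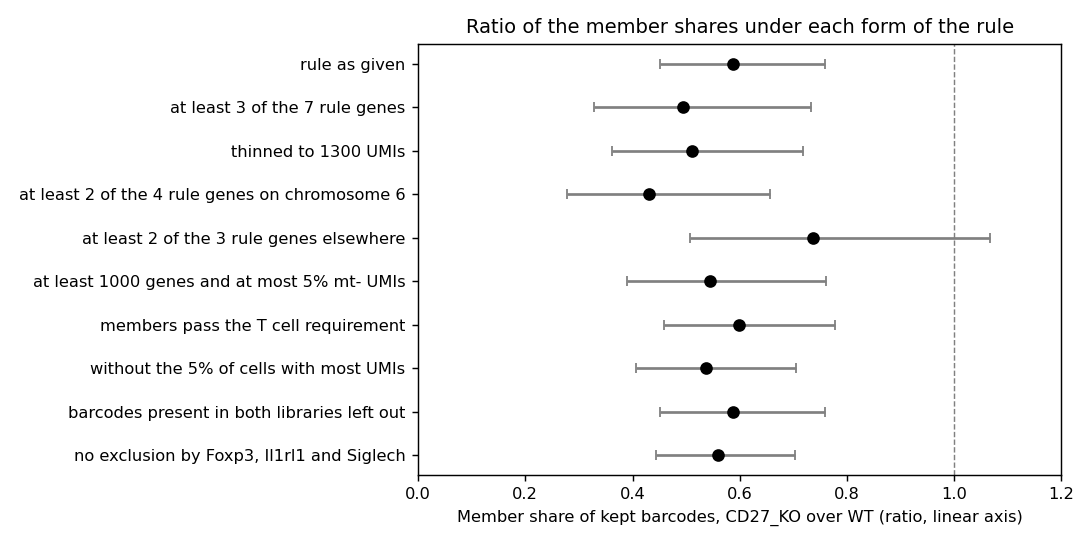
Ratio of the member share of kept barcodes, CD27_KO over WT, on a linear axis, for the rule as given and 9 other forms of it, with exact 95% counting intervals as bars. All points lie below 1 and the interval reaches past 1 only for the 3 rule genes that lie elsewhere than on chromosome 6 (0.508 to 1.07).

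The chemokine gene Xcl1 and the activating receptor gene Klrk1 were the rule genes found in most members. Xcl1, which encodes a lymphotactin that draws cross-presenting dendritic cells, had a UMI in 69.7% of CD27_KO members and 64.7% of WT members. Klrk1 had one in 62.6% of CD27_KO members and 73.1% of WT members. Fcer1g was found in 40.4% of CD27_KO and 41.7% of WT members, with 152 and 174 UMIs. Cd160, which encodes a receptor for HVEM and class I molecules, was found in 49.5% of CD27_KO members and 35.3% of WT members. The remaining 3 genes encode lectin-like receptors and were rarer. Klre1 was found in 18.2% of CD27_KO and 27.6% of WT members, and Klra1 (Ly49A) in 24.2% of CD27_KO and 27.6% of WT members. Klrc2 (NKG2C) was found in 14.1% of CD27_KO members and 29.5% of WT members, with 19 UMIs in CD27_KO and 71 in WT. Naive-marker cells were other T cells with at least 3 of 5 naive T cell markers, which should lack these genes. They were taken as a background for free RNA, at median depths of 2238 UMIs in CD27_KO and 2118.5 in WT. There each rule gene had a UMI in at most 1 of 273 CD27_KO cells and at most 9 of 742 WT cells. Other T cells with Gzma, 46 in CD27_KO and 26 in WT, held Klrk1 in 0% of CD27_KO and 19.2% of WT cells. They held Klre1 in 4.35% of CD27_KO and 19.2% of WT cells, and Fcer1g in 0% of both. As other T cells hold no more than 1 rule gene each, these shares are in part set by the rule.

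**Figure D2:**
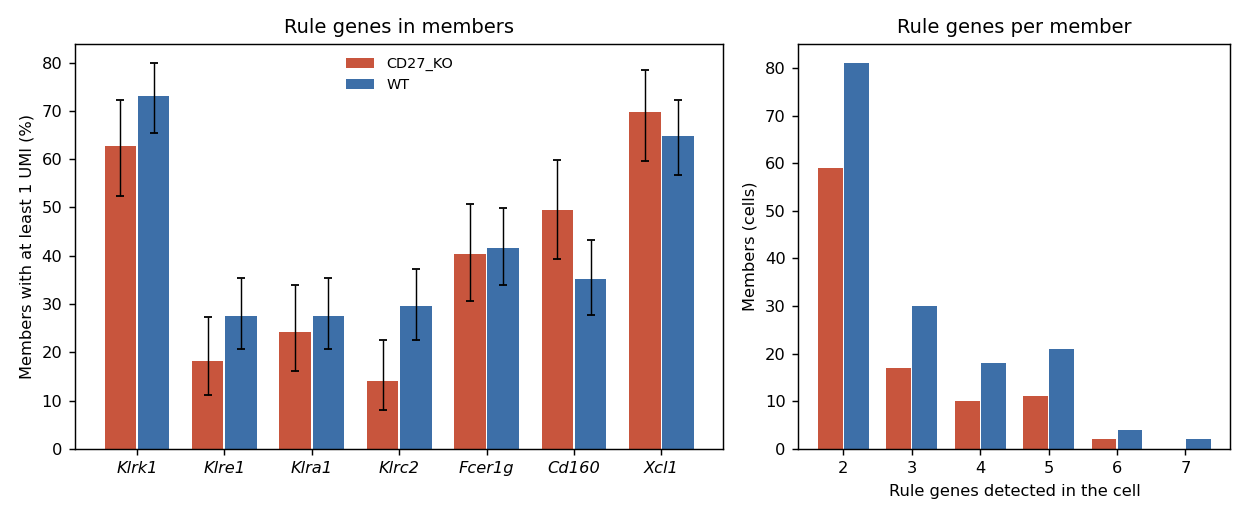
Left, share of members with at least 1 UMI of each rule gene (percent, exact 95% intervals as bars) in the CD27_KO and WT libraries. Right, number of member cells by how many of the 7 rule genes they held. Klrk1 and Xcl1 lead in both libraries, and 59 CD27_KO and 81 WT members sit at the minimum of 2 genes.

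Few members held the whole set. At least 3 rule genes were found in 40 CD27_KO and 75 WT members, 6 in 2 CD27_KO and 4 WT members, and all 7 in 0 CD27_KO and 2 WT members. Among members with exactly 2, Cd160 with Xcl1 was the commonest pair in CD27_KO, with 23 cells there and 19 in WT. Klrk1 with Xcl1 was the commonest in WT, with 13 cells in CD27_KO and 23 in WT. Clustering of all kept barcodes of both libraries placed 72 of 99 CD27_KO members and 113 of 156 WT members in 1 cluster led by Spry2, Klra1, Fcer1g, Xcl1, Klrk1, Klre1 and Cd160. That cluster also held cells the rule left out, with 139 CD27_KO and 323 WT cells in all. The rule genes were among the genes clustered, so where members with more of them fell follows at least in part from the rule and is a description. It took 95% of CD27_KO members and 89.3% of WT members with at least 3 rule genes, against 57.6% in CD27_KO and 56.8% in WT of those with exactly 2. The largest remaining share of CD27_KO members, 14 cells, lay in a cluster led by Itga1, Ifngas1 and Lyst, and that of WT members, 8 cells, in one led by Gzma and Cx3cr1.

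Most members carried T cell receptor components, but their identity as CD4 alpha beta T cells was less uniform than the sort implies. At least 1 of Cd3d, Cd3e and Cd3g, which encode the signalling chains of the receptor, was found in 90.9% of CD27_KO and 95.5% of WT members, against 98.5% and 98.2% of the other T cells in CD27_KO and WT. Beta constant chain transcripts (Trbc1 or Trbc2) were found in 97.0% of CD27_KO and 95.5% of WT members, and the alpha constant chain Trac in 70.7% of CD27_KO and 75% of WT members. Other T cells had Trac in 76.0% of CD27_KO and 68.7% of WT cells. Of the members, 2 in CD27_KO and 6 in WT did not meet the T cell requirement set for the other T cells. That requirement also asks for fewer than 2 of 17 markers of other cell types. At least 2 of these markers were found in 1 CD27_KO and 4 WT members, so failing it need not mean a lack of receptor transcripts.

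The coreceptor gene Cd4 was found in 37.4% of CD27_KO members (27.9% to 47.7%) and in 19.2% of WT members (13.4% to 26.3%), against 29.3% of other T cells in CD27_KO and 23.3% in WT. After thinning to 1300 UMIs, Cd4 was found in 15.2% of CD27_KO members and 6.21% of WT members, and in 17.8% of other T cells in CD27_KO and 15.3% in WT. The gene of the CD8 alpha chain, Cd8a, had 0 UMIs in members of both libraries, and Cd8b1 had 0 UMIs in CD27_KO and 2 in a single WT cell. Zbtb7b, which encodes the CD4 lineage factor ThPOK, was found in 15 of 99 CD27_KO and 10 of 156 WT members. Most members thus carried no Cd4 transcript, and neither did most other T cells. In WT the share was lower in members than in other T cells both before and after thinning, although members were deeper. In CD27_KO it was higher before thinning and lower after it. The cause was not tested.

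Transcripts of the T cell receptor gamma locus set the members apart from the other T cells by a wide margin in both libraries. At least 1 gamma chain gene, constant or variable, was found in 31.3% of CD27_KO members (22.4% to 41.4%) and 39.7% of WT members (32.0% to 47.9%). Among other T cells the share was 1.86% in CD27_KO (1.49% to 2.29%) and 3.33% in WT (2.83% to 3.90%). In cells with Ly6c2 that were not members it was 2.82% in CD27_KO and 8.0% in WT, and in naive-marker cells it was 1.47% in CD27_KO and 1.35% in WT. Thinned to 1300 UMIs, the shares of members were 23.2% in CD27_KO and 29.7% in WT, and those of other T cells 1.22% in CD27_KO and 2.70% in WT. Transcripts of the delta chain were rare over all members. Trdc or a Trdv segment was found in 3.03% of CD27_KO members (0.629% to 8.60%) and 3.21% of WT members (1.05% to 7.32%), against 1.04% of other T cells in CD27_KO and 1.38% in WT, and 3.66% of naive-marker cells in CD27_KO and 1.21% in WT. The delta locus lies inside the alpha locus and is lost from a chromosome when its alpha chain rearranges, while the gamma locus is kept. Of 6 markers of gamma delta T cells 4 had a UMI among members of each library, with 96.8 CPM in CD27_KO and 131 CPM in WT in sum, against 10.9 CPM and 19.0 CPM in the other T cells of CD27_KO and WT. Sox13 and Cd163l1, markers of some gamma delta T cells, had 0 UMIs in members of both libraries. At least 1 of 7 markers of invariant NKT cells was found in 20.2% of CD27_KO and 30.1% of WT members, with 57.6 CPM in CD27_KO and 150 CPM in WT in sum, against 2.92% and 3.78% of the other T cells in CD27_KO and WT, with 13.5 CPM and 20.5 CPM. Klrb1c, which NK cells carry too, gave 8 of the 22 UMIs in CD27_KO and 56 of the 70 in WT members. Zbtb16, which encodes the factor PLZF of invariant NKT cells, was found in 3 CD27_KO members and 1 WT member, and at least 2 markers of the list were found together in 1 CD27_KO and 2 WT members. The part of these cell types in the results was not tested. The gamma chain genes were grouped after their values had been seen.

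**Figure D3:**
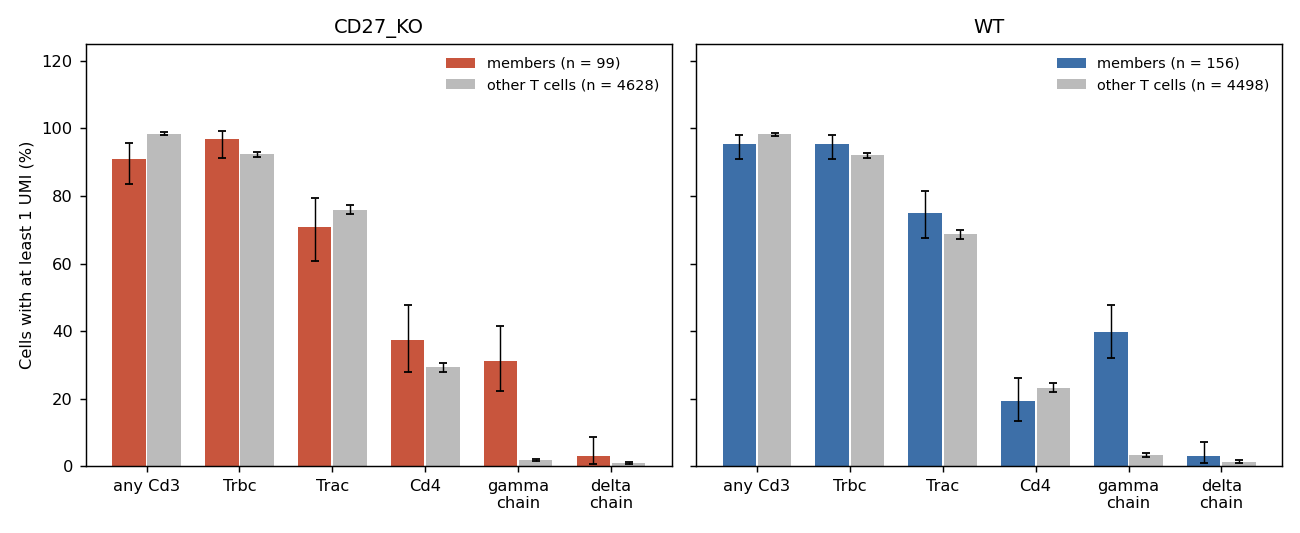
Share of members and of other T cells with at least 1 UMI of T cell receptor components (percent, exact 95% intervals as bars), CD27_KO left and WT right. Gamma chain genes were found in 31.3% of CD27_KO and 39.7% of WT members against 1.86% and 3.33% of the other T cells in CD27_KO and WT, while the delta chain was found in 3.03% of CD27_KO and 3.21% of WT members.

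Members with Fcer1g differed from those without it. Of members with Fcer1g, 40 in CD27_KO and 65 in WT, Tyrobp was found in 57.5% in CD27_KO and 43.1% in WT. Without Fcer1g, 59 in CD27_KO and 91 in WT, it was found in 10.2% in CD27_KO and 2.20% in WT. Ncr1, which encodes the activating receptor NKp46, was found in 14 CD27_KO and 11 WT members, each of which also held Fcer1g. The receptor chain Klrd1 was found in 62.5% of CD27_KO and 64.6% of WT members with Fcer1g, and in 15.3% of CD27_KO and 36.3% of WT members without it. Cd160 went the other way, found in 32.5% of CD27_KO and 23.1% of WT members with Fcer1g, and in 61.0% of CD27_KO and 44.0% of WT members without it. As Fcer1g and Cd160 are both rule genes, a cell without one of them needs others to be a member, so these shares are in part set by the rule.

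Detection of Cd3e and Trac was lower beside Fcer1g, and that of Trbc2 was not. Cd3e was found in 62.5% of CD27_KO and 76.9% of WT members with Fcer1g, and in 93.2% of CD27_KO and 92.3% of WT members without it. Trac was found in 55.0% of CD27_KO and 64.6% of WT members with Fcer1g, and in 81.4% of CD27_KO and 82.4% of WT members without it. Trbc2 was found in 92.5% of CD27_KO and 93.8% of WT members with Fcer1g, and in 86.4% and 87.9% without it. For Trbc1 the shares were 57.5% in CD27_KO and 50.8% in WT with Fcer1g, and 57.6% and 61.5% without it. The gamma chain share did not follow this split. It was 30% in CD27_KO and 38.5% in WT with Fcer1g, and 32.2% in CD27_KO and 40.7% in WT without it. Delta chain transcripts were found in 2 of 40 CD27_KO and 5 of 65 WT members with Fcer1g, and in 1 of 59 CD27_KO and 0 of 91 WT members without it, the 0 with an upper bound of 3.97%. Among members with Ncr1 they were found in 2 of 14 in CD27_KO (1.78% to 42.8%) and 4 of 11 in WT (10.9% to 69.2%).

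**Figure D4:**
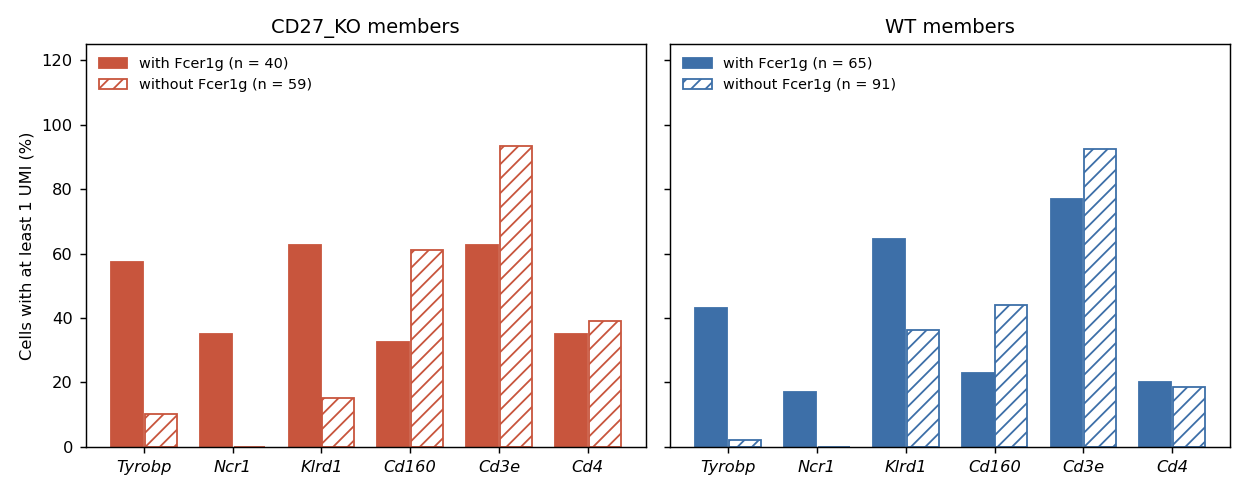
Share of members with at least 1 UMI of 6 genes (percent), split by whether the cell held Fcer1g (filled bars) or not (hatched bars), CD27_KO left and WT right. Tyrobp, Ncr1 and Klrd1 are more often found with Fcer1g and Cd160 and Cd3e more often without it, and Ncr1 was found in 0 members without Fcer1g in both libraries.

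Clustering the members alone gave 5 groups, whose leading genes define them and are no result. A group led by Ncr1, Tyrobp and Ccl4 held 21 CD27_KO and 19 WT members. In it Cd3e was found in 38.1% of CD27_KO and 47.4% of WT cells and Trac in 52.4% of CD27_KO and 47.4% of WT cells. Trbc2 was found in 85.7% of its CD27_KO and 89.5% of its WT cells. Over all members, 7 of 8 markers of NK cells and type 1 innate lymphoid cells had a UMI in CD27_KO and 8 of 8 in WT, with 461 CPM in CD27_KO and 429.5 CPM in WT in sum, against 31.7 CPM and 24.9 CPM in the other T cells of CD27_KO and WT. At least 2 of these markers were found together in 17 CD27_KO and 21 WT members, and their part in the results was not tested. A group led by Klf2 held 7 of 99 CD27_KO members and 61 of 156 WT members. In it Cd3e was found in 6 of 7 CD27_KO and 53 of 61 WT cells and Ncr1 in none. A group led by cell cycle genes such as Stmn1 and Top2a held 6 CD27_KO and 4 WT members. A group led by Cd74 held 35 CD27_KO and 33 WT members. Their median was 5087 UMIs in CD27_KO and 4605 in WT, well above the medians of all members. Cd74 had 17 UMIs in 4 of these CD27_KO cells and 241 UMIs in 6 of these WT cells. The last group, led by Klra9, held 30 CD27_KO and 39 WT members. In it Cd4 was found in 7 CD27_KO and 0 WT cells, and Cd3e in 29 CD27_KO and 36 WT cells.

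Set against the other T cells of the same library, members had 341 of 9042 measured genes at least 2-fold higher in CD27_KO, 3.77% of them, and 364 of 8617 in WT, 4.22%. A gene counted as measured with at least 50 UMIs over both sets of cells. At least 2-fold lower were 636 genes in CD27_KO, 7.03%, and 501 in WT, 5.81%. In both libraries 86 of 8497 genes were higher, 1.01%, and 88 lower, 1.04%. Many of these rest on a handful of member UMIs. With at least 10 member UMIs expected at equal levels, 30 of 4554 genes were higher in CD27_KO, 0.659%, and 65 of 4684 in WT, 1.39%, and 86 were lower in CD27_KO, 1.89%, and 94 in WT, 2.01%. Of 4360 genes that met this in each library, 21 were at least 2-fold higher in both, 0.482%, and 15 lower in both, 0.344%. Among the 21 were the rule gene Xcl1, genes of cytotoxic cells (Nkg7, Ctsw, Serpinb9, Serpinb6b), the chemokine gene Ccl5, the surface genes Ly6c2, Cd7, Itga1 and Entpd1, and Ugcg, Acot7, Gm19585, Pglyrp1, Anxa1, Anxa2, Efhd2, Arsb, Fgl2 and Tmem176a. The 15 were Ccr7, S1pr1, Dapl1, Nt5e, Csf2, Tbc1d4, Vkorc1, Ramp3, Ly6c1, Abcb1b, Tiam1, Pik3ip1, Dusp10, Gm8369 and Gm20186. As the members and their comparison come from the same cells, these contrasts describe the members and are no test.

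Of the genes that the rule did not use, ranked by the smaller of the ratios in both libraries, Tyrobp, the adaptor of several activating NK receptors, was furthest above the other T cells. It had 117 UMIs in 29 CD27_KO members and 88 in 30 WT members, which is 306 and 189 CPM, UMIs of the gene per 1000000 UMIs of the cells summed, in CD27_KO and WT. Other T cells had 0.992 CPM in CD27_KO and 4.01 CPM in WT, and the log2 ratio of members over other T cells was 8.27 in CD27_KO and 5.56 in WT. Hcst, the adaptor of KLRK1, was instead found in nearly all T cells. Hcst had 1873 CPM in CD27_KO and 1763 CPM in WT members, and 1829 CPM in CD27_KO and 1387 CPM in WT other T cells. Of 15 measured signalling adaptors, Tyrobp was the 1 at least 2-fold higher in either library. Of all measured genes, 3.77% were higher in CD27_KO and 4.22% in WT.

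Spry2, an antagonist of receptor tyrosine kinase signalling, was next. It had 107 UMIs in 44 CD27_KO members and 101 in 47 WT members, 280.0 CPM in CD27_KO and 217 CPM in WT. Other T cells had 2.43 CPM in CD27_KO and 8.94 CPM in WT, so that the log2 ratio was 6.85 in CD27_KO and 4.60 in WT. Nrgn, a calmodulin-binding protein known from neurons, had a log2 ratio of 5.52 in CD27_KO and 3.96 in WT, from 13 member cells in each library. Thinned to 1300 UMIs, Spry2 was found in 29.3% of CD27_KO and 20% of WT members.

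NK receptor genes that the rule did not use were also higher. Klrd1 had 118 UMIs in CD27_KO and 196 in WT members, with a log2 ratio over other T cells of 4.96 in CD27_KO and 3.53 in WT. It was not particular to members. Klrd1 and Ccl5 were also among the leading genes of the cluster of all cells led by Gzma and Cx3cr1. That cluster held 92 CD27_KO and 53 WT cells, of which 0 and 8 were members. Klrb1f, an NKR-P1 family receptor, had a log2 ratio of 3.95 in CD27_KO and 3.05 in WT. Of 8 measured genes of this list in CD27_KO 4 were at least 2-fold higher and 1 lower, and of 10 in WT 6 were higher and 0 lower, with a median log2 ratio of 0.98 in CD27_KO and 1.42 in WT beside 0.02 and 0.10 over all measured genes in CD27_KO and WT. Ncr1 fell below the count needed there, with 26 UMIs in CD27_KO and 24 in WT members beside 3 in CD27_KO and 1 in WT other T cells. Klra and Klrc genes are near-identical copies, and no source used here says how reads that match several of them were handled, so the level of a single one is uncertain.

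The cytotoxic programme was partial. Nkg7, a granule membrane protein, was found in 87.9% of CD27_KO and 92.3% of WT members, with 889.6 CPM in CD27_KO and 1138 CPM in WT against 368 CPM and 422 CPM in the other T cells of CD27_KO and WT. Ctsw, a cathepsin of cytotoxic cells, had a log2 ratio of 1.62 in CD27_KO and 1.86 in WT. Cells with Ly6c2 that were not members lay between, with 569 CPM of Nkg7 in CD27_KO and 799 CPM in WT, and 157 CPM of Ctsw in CD27_KO and 211 CPM in WT. The granzyme genes were found in few members. Gzmb had 12 UMIs in 7 CD27_KO and 17 UMIs in 14 WT members, and Gzma 11 UMIs in 4 CD27_KO and 78 UMIs in 8 WT members, 34 of them in 1 cell. Of 11 measured genes of cytotoxic granules and death ligands, 5 stood at least 2-fold above the other T cells in CD27_KO and 7 did in WT, and 0 stood below. Of all measured genes, 3.77% stood above in CD27_KO and 4.22% in WT.

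Among chemokines and cytokines, Ccl5 was the most abundant. It was found in 90.9% of CD27_KO and 86.5% of WT members, with 5149 CPM in CD27_KO and 6696 CPM in WT, and 2409 CPM in CD27_KO and 2542 CPM in WT other T cells. In cells with Ly6c2 that were not members it had 3569 CPM in CD27_KO and 5030 CPM in WT. Ccl4 had 67 UMIs in 14 CD27_KO and 37 UMIs in 15 WT members, with a log2 ratio of 3.87 in CD27_KO and 2.79 in WT. A single cell held 21 of the 67. Csf2 had 4 UMIs in CD27_KO and 3 in WT members and a log2 ratio of -1.86 in CD27_KO and -2.05 in WT. When the rule was applied anew to counts thinned to 1300 UMIs, the CD27_KO ratio was 1.71. The members chosen in that way were not the same set of cells. The type 1 cytokine gene Ifng had 109.9 CPM in CD27_KO and 129 CPM in WT members, and 162 CPM in CD27_KO and 80.4 CPM in WT other T cells. Of 9 measured genes of this list 2 were at least 2-fold higher in each library, and 3 were lower in CD27_KO and 1 in WT. Of all measured genes, 3.77% were higher and 7.03% lower in CD27_KO, and 4.22% and 5.81% in WT.

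Of 11 measured genes of tissue residency 2 were at least 2-fold higher in each library and 0 lower. Their median log2 ratio was 0.25 in CD27_KO and 0.52 in WT, beside 0.02 and 0.10 over all measured genes. Of all measured genes, 3.77% were higher and 7.03% lower in CD27_KO, and 4.22% and 5.81% in WT. Genes of recirculation were more often lower than higher. Itga1, which encodes the collagen-binding integrin chain CD49a, had a log2 ratio of 1.15 in CD27_KO and 1.56 in WT. Ly6c2 was found in 77.8% of CD27_KO and 75.6% of WT members, and in 19.9% of CD27_KO and 21.4% of WT other T cells. Cd7 was found in 48.5% of CD27_KO and 27.6% of WT members, and in 8.15% of CD27_KO and 5.98% of WT other T cells. In the cells with Ly6c2 that were not members Cd7 was found in 9.43% in CD27_KO and 10.5% in WT. Ccr7, which guides cells to lymph nodes, had 2 UMIs in CD27_KO and 8 in WT members, 5.23 CPM and 17.2 CPM, and other T cells had 37.9 CPM in CD27_KO and 117 CPM in WT. S1pr1, the receptor for egress, had a log2 ratio of -1.21 in CD27_KO and -1.39 in WT. Of 10 measured recirculation genes 5 in CD27_KO and 3 in WT were at least 2-fold lower and 0 higher, with a median log2 ratio of -0.998 in CD27_KO and -0.876 in WT.

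Of the other genes named for the members, Tm6sf1, Rnf130 and Irf8 were higher, with log2 ratios of 2.62, 2.30 and 2.04 in CD27_KO and 2.50, 2.22 and 2.15 in WT. Cd74, the invariant chain of class II molecules, had 18 UMIs in 5 CD27_KO and 245 UMIs in 9 WT members, of which 135 came from 1 cell. Of 17 markers of B, myeloid, plasmacytoid, mast and stromal cells, 9 in CD27_KO and 12 in WT had a UMI among members, with 60.2 CPM in CD27_KO and 77.3 CPM in WT in sum, and at least 2 of them were found together in 1 CD27_KO and 4 WT members. Among the genes lower in members, Ift80, Lmf2, Rassf3, Fbxo46, Slc49a4, Wdr53, Cd320, Carf, Il6ra and Nt5e beside Ccr7 and Csf2 were furthest, most on few member UMIs. Fbxo46, with 1 UMI in members of each library, and Csf2 were higher, at 0.56 and 1.71, in the CD27_KO members chosen anew after thinning.

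Regulators showed smaller differences. Il2rb, the beta chain of the receptors for interleukins 2 and 15, had 607 CPM in CD27_KO and 496 CPM in WT members, and 336 CPM in CD27_KO and 205 CPM in WT other T cells. Tbx21, which encodes T-bet, was found in 13.1% of CD27_KO and 14.7% of WT members, with a log2 ratio over other T cells of -0.02 in CD27_KO and 1.25 in WT. Eomes had 3 UMIs in CD27_KO and 5 in WT members. Of 11 measured type 1 regulators and receptors 1 in CD27_KO and 3 in WT were at least 2-fold higher, and 0 in CD27_KO and 1 in WT lower. For innate-like regulators 1 was higher and 1 lower in each library, of 9 measured in CD27_KO and 11 in WT. For type 2 and type 17 regulators 0 were higher in either library, with 0 of 6 lower in CD27_KO and 1 of 5 in WT. Inhibitory receptors were split, with 3 of 7 higher and 1 lower in CD27_KO and 1 of 8 higher and 2 lower in WT. Of 13 measured genes of the tumour necrosis factor receptor family 1 was higher and 1 lower in each library. Over all measured genes 3.77% were higher and 7.03% lower in CD27_KO, and 4.22% and 5.81% in WT. The counts of these small lists are a description and no result about a list. No gene of the immediate early, heat shock and glycolysis lists was 2-fold apart in either library, while interferon response genes were lower for 3 of 11 in CD27_KO and 1 of 9 in WT, and cell cycle genes higher for 0 of 10 in CD27_KO and 1 of 9 in WT and lower for 1 in CD27_KO and 0 in WT.

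Between CD27_KO and WT members, 46 of 2373 measured genes stood at least 2-fold higher, 1.94%, and 26 at least 2-fold lower in CD27_KO, 1.1%. Over the other T cells 252 of 9886 genes were higher, 2.55%, and 141 lower, 1.43%. The median log2 ratio of the genes measured in members was 0.10, and values below stand beside it. The shares of called genes in members and in other T cells cannot be ranked against each other. The same minimum of UMIs per gene was asked of both, and the other T cells held far more UMIs in sum. The 9886 genes measured there thus reach to lower levels than the 2373 measured in members.

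Genes near Cd27 stood on both sides. Within 10 Mb of Cd27, 33 genes were measured in members, of which Klra5 and Kdm5a were at least 2-fold higher and Cd27, Klrb1c, Klrb1f, Klrc2 and Klra1 at least 2-fold lower in CD27_KO. These are 7 of the 72 genes called, from a region that held 1.39% of the genes measured. Cd27 among them is the targeted gene, and Klrc2 and Klra1 are rule genes. These calls were thus set at least in part by the knockout and by the rule, and the counts are no measure of an excess near Cd27. Klra5, a Ly49 family receptor, had 43 UMIs in 14 CD27_KO members and 11 UMIs in 6 WT members, 113 CPM and 23.6 CPM, with a log2 ratio of 2.25 (1.27 to 3.36). Other T cells had 6 UMIs of Klra5 in CD27_KO and 0 in WT. Klrb1c, which encodes NK1.1, had 8 UMIs in 7 CD27_KO members and 56 UMIs in 36 WT members, 20.9 CPM and 120.3 CPM, with a log2 ratio of -2.52 (-3.80 to -1.45). In the other T cells the log2 ratio of Klrb1c was -1.96, and that of Klrb1f, which was -1.05 in members, was -1.95. Klrb1c and Klrb1f were thus apart in cells that were not members as well. The rule genes of the region, which the rule used, had log2 ratios of -0.44 for Klrk1, -0.93 for Klre1, -1.26 for Klra1 and -1.62 for Klrc2. Those elsewhere had 0.09 for Fcer1g, 0.56 for Cd160 and -0.18 for Xcl1. Whether linkage to the Cd27 locus has a part in these differences was not tested.

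Cd27 itself had 116 CPM in WT members, close to the 135 CPM of WT other T cells, and its 0 UMIs in CD27_KO members, set against a floor of 3 counts, put it at a log2 ratio of -3.88 or lower.

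Away from chromosome 6, Klf2, a factor that maintains S1pr1 and recirculation, was lower in CD27_KO members. It had 34 UMIs in 21 CD27_KO members and 126 UMIs in 50 WT members, 89.0 CPM and 271 CPM, with a log2 ratio of -1.60 (-2.20 to -1.05). Lef1, a naive and memory cell factor, had a log2 ratio of -1.14 (-1.86 to -0.46). Both were lower in the other T cells as well, at -0.84 for Klf2 and -0.66 for Lef1. Of 6 measured recirculation genes 2 were at least 2-fold lower in CD27_KO members, beside 1.1% of all genes measured in members. Bloc1s1, Gstp1, Hsd17b10, Rpa3, Park7 and Mrpl23 were among the others furthest below, between -1.44 and -1.02, of genes with at most 25% of their UMIs in 1 cell. Of these, Rpa3 lies on chromosome 6, at -117 Mb from Cd27. Some genes above that limit, named after their values were seen, lay lower. The class II genes H2-Ab1, H2-Eb1, H2-Aa and Cd74 had log2 ratios of -5.30, -4.17, -3.51 and -3.48, with 46.4% to 55.1% of their WT UMIs in 1 cell. H2-Ab1 had 2 UMIs in 1 CD27_KO member and 96 UMIs in 5 WT members. Mt1, a metallothionein, was at -5.33, Apoe, an apolipoprotein of macrophages among other cells, at -4.76 and Cst3 at -1.49. The chemokine gene Cxcl2 had 0 UMIs in CD27_KO members and 81 UMIs in 13 WT members, -4.47 or lower. In the clustering of all cells 1 CD27_KO and 4 WT members lay in a cluster led by Cd74 and H2-Aa, and 0 CD27_KO and 4 WT members in one led by the stromal genes Fabp4 and Dcn. A cluster led by Cxcl2 and Areg, with Foxp3 and Mt1 among its leading genes, held 0 CD27_KO and 4 WT members. It took 4.58% of the kept barcodes in CD27_KO and 18.3% in WT. The part of the members of these clusters in the ratios was not tested.

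Of the genes higher in CD27_KO members, Trerf1, Lgals3 and Trat1 had log2 ratios of 1.62, 1.23 and 1.22, and the other T cells had 1.64, 1.05 and 1.27 for the same genes. Lgals3 (galectin 3) had 123 UMIs in 52 CD27_KO members and 64 UMIs in 40 WT members. Pon2, at 1.65, and Dock8, a guanine nucleotide exchange factor needed for lymphocyte migration, at 1.21 (0.56 to 1.89), stood at 0.31 and 0.19 in the other T cells. Pon2 lies on chromosome 6, at -120 Mb from Cd27. Trim5, Sytl2, Rtn3, Cdc37l1, Chd8 and Zfp652 were the others furthest above, between 1.59 and 1.24. Ccl4 was higher too, at 1.14, with 31.3% of its CD27_KO UMIs in 1 cell.

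**Figure D5:**
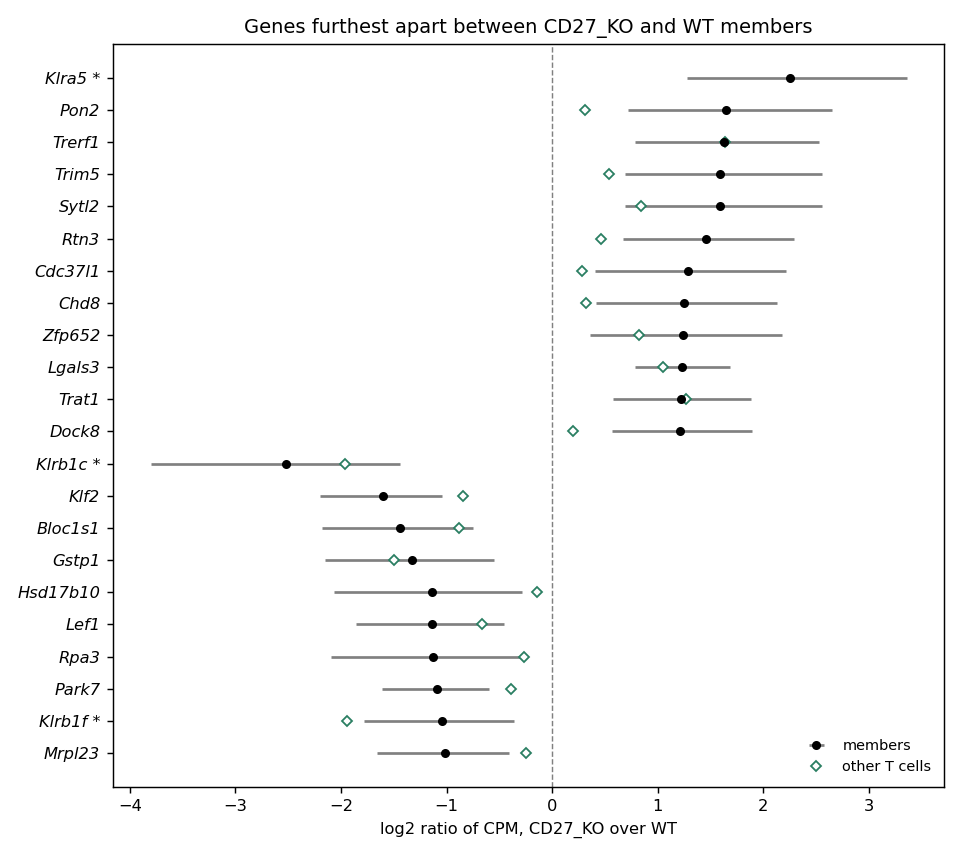
Log2 ratio of CPM, CD27_KO over WT, for the genes furthest apart between members, with members as filled points and exact 95% counting intervals as bars, and other T cells as open diamonds. Cd27 is among the genes left out, asterisks mark genes within 10 Mb of Cd27, and Klra5 has no diamond because WT other T cells held 0 UMIs. Trerf1 and Trat1 lie at nearly the same value in both sets of cells.

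Several genes higher in members than in other T cells were less than 2-fold apart between the libraries. Nkg7 and Ccl5 had log2 ratios of -0.36 (-0.56 to -0.16) and -0.38 (-0.46 to -0.30) in CD27_KO over WT members. Tyrobp was at 0.70 (0.28 to 1.11), Spry2 at 0.37 (-0.04 to 0.78), Ly6c2 at -0.06 (-0.25 to 0.13) and Cd7 at 0.49 (0.04 to 0.94). Beside the list counts that follow, 1.94% of all genes measured in members were higher and 1.1% lower in CD27_KO. Of the list of adaptors 0 of 13 were 2-fold apart. Of cytotoxic genes 0 of 8 were higher and 1, Gzma, lower at -2.54, with 43.6% of its WT UMIs in 1 cell. Of the NK receptors not in the rule 1 of 8 was higher and 2 lower, and these are Klra5, Klrb1c and Klrb1f. Of the effector cytokines 1 of 4 was higher, Ccl4, and of the innate-like regulators 1 of 5 lower, Klf2. No gene of the type 1, type 2 and type 17, inhibitory receptor, tumour necrosis factor receptor, immediate early, heat shock, interferon, cell cycle and glycolysis lists was 2-fold apart between CD27_KO and WT members, of 2 to 10 measured in each.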

How the data were processed

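RNA of sorted TCRb+ CD4+ cells was measured in 1 CD27_KO and 1 WT library. Reads were counted by the authors in Cell Ranger 6.1.1, per the file headers, and the deposited matrices hold raw UMI counts for 32285 genes, with the build mm10 per the submitters' processing notes. The labels name a v3.1 kit in the design text and a v2 kit in the sample protocol, and no source used here gives further settings. An antibody feature with 0 UMIs in both libraries was not used.

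From those counts, barcodes were kept from 500 genes upward if no more than 10% of UMIs were mitochondrial, so that 40 CD27_KO and 60 WT barcodes dropped out. The members and gene lists were chosen with earlier results of these data known. UMIs were summed over cells, divided by the sum of all UMIs to give CPM, and compared as log2 ratios with exact conditional Poisson intervals. Shares carry exact Clopper-Pearson intervals. Both are at 95% and cover counting error only. A ratio against 0 UMIs was set at a floor of 3 counts per group of cells. With 1 library per group no p-value, standard error or test was computed, and a gene was called at 2-fold with at least 50 UMIs. Other T cells also had fewer than 2 detected markers of 17 for other cell types. No doublet caller was run, and an alternative left out the 5% of cells with most UMIs. For thinned shares each cell was drawn down to 1300 UMIs and shallower cells were left out, 0 CD27_KO and 11 WT members. Scripts were tested on simulated data.

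The genes named were a fixed list with the rule genes, the 12 furthest in each direction that were apart the same way in both libraries, the 12 furthest in each direction between CD27_KO and WT members with at most 25% of UMIs in 1 cell, and up to 4 of each of 16 lists, without receptor segments, ribosomal, mitochondrial, sex-linked and unnamed genes. Some genes that met this rule are not reported here. The genes apart with at least 10 member UMIs expected and the gamma chain group were chosen after their values were seen. Clustering used Leiden on 30 components, 20 neighbours, 2000 variable genes and resolution 1.0 for all cells, and on 10 components, 15 neighbours, 1000 genes and resolution 0.6 for the members. Positions are from GENCODE vM21 and promoters from RefSeq GRCm38.p6. Python 3.11.15, numpy 2.4.6, pandas 2.3.3, scipy 1.17.1, scanpy 1.11.5, igraph 0.11.9 and matplotlib 3.10.9 were used.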

Additional observations from a re-analysis of the deposited data

Results flagged for a closer look

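The log2 ratio of members over other T cells had opposite signs in the libraries for Tbx21 and Gzma, and the difference between the libraries was not tested. For Tbx21 it was -0.0168 in CD27_KO and 1.25 in WT, from 14 UMIs in CD27_KO and 26 UMIs in WT members, and the CD27_KO value lies at nearly equal levels, with an interval of -0.90 to 0.75. For Gzma it was -0.252 in CD27_KO and 3.06 in WT, with a CD27_KO interval of -1.27 to 0.60 that includes 0, from 11 UMIs in 4 CD27_KO members and 78 UMIs in 8 WT members, with 34 of the WT UMIs in 1 cell.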

How the results depend on the processing

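No paired analysis was possible because each group has 1 library and the labels give no replicate numbers. Of 105 values of the main results under an alternative, 53 stayed within the bounds set for them, 52 moved and 0 reversed, and of 2085 values for single genes 1868 stayed within, 214 moved and 3 reversed. The member share was 0.584% in CD27_KO and 1.18% in WT with at least 3 rule genes, 0.838% and 1.64% after thinning, 0.496% and 1.15% on the chromosome 6 rule genes, 0.803% and 1.09% on the others, 2.05% and 3.76% from 1000 genes upward with no more than 5% mitochondrial UMIs, and 1.81% and 3.23% without the exclusion genes, each in CD27_KO and WT. The ratio of the shares moved beyond its bounds only with the chromosome 6 rule genes, to 0.431. Genes higher in members than other T cells numbered 709 in CD27_KO and 621 in WT with at least 3 rule genes, 775 and 650 after thinning, 218 and 144 with the stricter cell filter, 633 and 668 at 20 UMIs, 182 and 192 at 100 UMIs, 1134 and 1242 at 1.5-fold, and 30 and 65 with at least 10 member UMIs expected. Genes lower numbered 1312 in CD27_KO and 1042 in WT at 1.5-fold, 86 and 94 with at least 10 member UMIs expected, and 273 in WT at 100 UMIs. Genes higher in CD27_KO than WT members numbered 22 and genes lower 13 with at least 3 rule genes, 9 and 6 after thinning, 18 and 15 on the chromosome 6 rule genes, 28 and 7 on the others, 263 and 116 at 20 UMIs, 10 and 9 at 100 UMIs, 267 and 101 at 1.5-fold, and 23 and 17 without members that held Fcer1g or Tyrobp. Genes higher numbered 25 without the deepest 5% of cells, 30 without ribosomal, mitochondrial and receptor genes, 27 with the median set to 0 and 27 in members with exactly 2 rule genes. The log2 ratio of members over other T cells in CD27_KO reversed to -0.53 for Cd74 with at least 3 rule genes, and after thinning to 0.56 for Fbxo46 and 1.71 for Csf2. The alternatives with 10 UMIs expected, with exactly 2 rule genes, and without Fcer1g or Tyrobp were added after seeing the data. In the thinned alternative the rule and its exclusion genes were read from the thinned counts, so cells could enter the members as well as leave them. The cause of each change was not tested. Thinning and the stricter rules left fewer member cells and UMIs. With 382185 UMIs in CD27_KO and 465651 UMIs in WT members, genes of few UMIs carry wide intervals.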
